A study of Mus musculus with 6 samples.

Results

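Complex I (NADH:ubiquinone oxidoreductase) genes were followed in the fasted mouse liver with and without hepatocyte PAK4, a serine/threonine kinase. The genes were taken by annotation and symbol, as protein-coding genes named Nduf with a letter a, b, c, s or v and a digit (nuclear subunits and their relatives), Ndufaf with a number (assembly factors), or ND1 to ND6 and ND4L (subunits encoded by mitochondrial DNA). This gave 54 of the 45777 genes in the table, which were 39 nuclear members, 8 assembly factors and 7 mitochondrial subunits. All 54 passed the filter on low counts, which kept 18636 genes. RNA was sequenced from whole liver of 3 control mice (WT, Pak4 flox/flox without Cre) and 3 hepatocyte-specific knockouts (LKO, Pak4 flox/flox with Albumin-Cre), which were C57BL/6 males aged 8 weeks and had all been fasted for 24 h. Every mouse thus carried the floxed Pak4 alleles, and Cre was driven by the albumin promoter, so that the liver's other cell types should keep Pak4. No fed mice were analysed here, so that a difference is one between genotypes in the fasted state.

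Complex I is the largest complex of the respiratory chain and the main entry point for electrons from NADH, which β-oxidation, the citric acid cycle and ketone metabolism produce or use. Electrons pass from the flavin of the N module at the tip of the matrix arm, along iron-sulfur clusters, to the Q module, where ubiquinone is reduced, and the membrane arm then pumps protons. The catalytic core is shared with bacteria and is made from both genomes: the matrix arm core is nuclear, and the membrane core is mitochondrial. The remaining nuclear subunits are accessory, and the assembly factors help to build the enzyme but are not part of it.

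The libraries held 45934632 to 59576437 counts each. Pairwise correlations of log2 normalised counts were 0.990 to 0.991 among WT mice, 0.981 to 0.988 among LKO mice and 0.929 to 0.948 between the groups. The composition of the libraries differed between the groups: small non-coding RNA genes took 7.30% to 7.66% of the counts in WT and 17.4% to 21.1% in LKO. The TMM scaling factors, which correct for differences in composition as a whole, were 1.28 to 1.43 in WT and 0.639 to 0.816 in LKO. The median log2 fold change (LKO over WT) of all genes was -0.04 with TMM, the scaling used for all values below unless another is named. It was shifted by -0.86 with total counts and by -0.75 on log2(TPM + 1). With scaling computed without mitochondrial and small RNA genes it was -0.02, and the source of the shifts was not tested. Pak4 itself was at 3.59, 3.21 and 4.1 CPM (TMM-normalised counts, scaled to a common library total) in the WT mice and at 1.93, 1.49 and 3.22 CPM in the LKO mice, so that LKO replicate 3 lay inside the WT range. Its log2 fold change was -0.71 ± 0.31 (SE, n = 3 per group, adjusted p = 0.101 by edgeR's quasi-likelihood test). Without LKO replicate 3 it was -1.08 and passed the threshold. The 6 hepatocyte markers summed to 32000 to 36200 TPM in WT and 23200 to 37100 TPM in LKO. The summed levels of Kupffer cell markers (174 to 291 TPM in WT, 133 to 200 in LKO), endothelial markers (98.3 to 135 and 62.5 to 103) and stellate markers (124 to 160 and 161 to 222) were far lower. On TMM-scaled counts, 2 of the 4 markers in each of these 3 lists were called higher, as were 3 of the 6 hepatocyte markers, with 1 lower. These calls and the TPM sums are on different scales and need not run the same way. The 4 cholangiocyte markers summed to at most 1.51 TPM, the 3 T cell markers to at most 7.18 TPM in WT and 0.954 TPM in LKO, the 2 B cell markers to at most 1.38 TPM, and the muscle and adipose markers to at most 0.623 TPM, with Acta1 and Plin1 at 0. In whole tissue, fewer cells of a type and less RNA per cell cannot be told apart, and the part of cell composition in the values below was not tested.

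Of the 54 complex I genes, 33 were higher in LKO liver, 6 were lower and 15 did not pass the test (adjusted p below 0.05). Over all genes tested, 19.6% were called higher and 20.5% lower, so that 61.1% of the complex I genes rose against 19.6% of all genes, and 11.1% fell against 20.5%. The median log2 fold change was 0.79 for the 54 genes and -0.04 for all genes. The levels of the 3 LKO and 3 WT mice did not overlap for 42 of the 54, where 54.0% of all genes tested had ranges that did not overlap. The nuclear members ranged from -1.21 to 2.70 on the log2 scale, with 23 of 39 higher and 6 lower. The 8 assembly factors (6 higher, none lower) and the 7 mitochondrial subunits (4 higher, none lower) had positive estimates throughout. Without LKO replicate 3, the mouse with the highest Pak4 level of its group, 23 nuclear members were higher and 5 lower, 6 assembly factors were higher, and 2 mitochondrial subunits were. Over all fits without 1 mouse, 18 (without WT replicate 2) to 23 nuclear members were higher and 5 or 6 lower. In the same fits 4 to 6 assembly factors were higher, and there were 4 without WT replicate 1, WT replicate 2, LKO replicate 1 or LKO replicate 2, where Ndufaf3 and Ndufaf7 lost their calls.

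**Figure D1:**
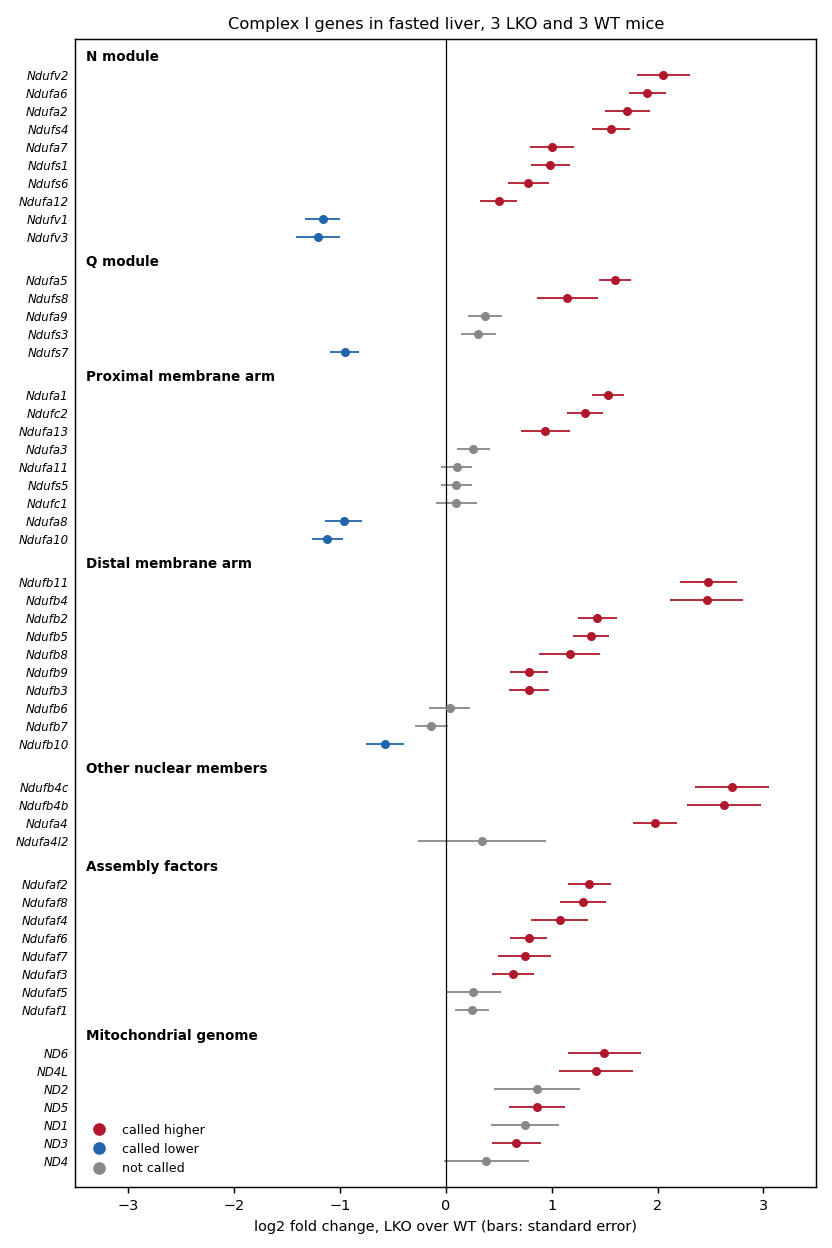
Log2 fold change (LKO over WT, horizontal axis) of 53 complex I genes with its standard error (bars), ordered within the part of the enzyme, n = 3 mice per group. Red points were called higher, blue points lower and grey points neither; 6 nuclear subunits lie to the left of 0 in blue, while no assembly factor or mitochondrial subunit does.

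These directions were relative to the other genes of the same library. The nuclear members together took 0.261% to 0.307% of the counts in WT and 0.276% to 0.340% in LKO. When the libraries were scaled by their totals, 24 of the 33 higher genes kept a positive estimate, and on the TPM scale 10 of them did. The 10 were Ndufv2, Ndufs4, Ndufa2, Ndufa4, Ndufa5, Ndufa6, Ndufb4, Ndufb4b, Ndufb4c and Ndufb11. The 6 lower genes were Ndufv1, Ndufv3, Ndufs7, Ndufa8, Ndufa10 and Ndufb10, and their sign was not put to the test by scalings that move genes as a whole downwards. The same scalings turned the balance over all genes: 49.0% of called genes were higher with TMM, 10.9% with total counts and 3.29% on the TPM scale. Relative to the median of all genes, the nuclear median was 0.83 with TMM and 0.82 with total counts. It was 0.15 on log2(TPM + 1), where the added 1 pulls the estimates of low genes towards no change. The median of all genes includes such low genes, so that 0.15 is not directly comparable with the other values.

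The 6 nuclear core subunits described here, most of which carry the flavin or iron-sulfur clusters, did not move together: 3 were higher, 2 were lower and 1 did not pass. Ndufv1, which binds NADH and the flavin, was at 196, 140 and 167 CPM in the WT mice and at 74.0, 77.5 and 73.3 CPM in the LKO mice. All LKO mice were below all WT mice, with a log2 fold change of -1.16 ± 0.16 (SE, n = 3 per group, adjusted p = 0.00109). Ndufv2, its partner in the same module and the carrier of a further iron-sulfur cluster, was at 70.0, 55.2 and 70.7 CPM in WT against 227, 375 and 212 CPM in LKO. It rose 4.16-fold (2.06 ± 0.25, adjusted p = 0.000598), in all 3 LKO mice. Ndufs1, the large iron-sulfur subunit that completes the N module core, was at 154, 116 and 148 CPM in WT against 276, 318 and 236 CPM in LKO. Its rise of 0.99 ± 0.18 (adjusted p = 0.00376) was seen in every LKO mouse, but the estimate was 0.11 with total counts and -0.55 on the TPM scale.

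In the Q module core, Ndufs7, which holds the last iron-sulfur cluster before ubiquinone, was at 31.4, 30.0 and 27.5 CPM in WT against 15.9, 14.5 and 15.4 CPM in LKO. It fell by 0.95 (SE 0.13, n = 3 per group, adjusted p = 0.00105), and the mice within a group were close to each other. Ndufs8, the neighbouring iron-sulfur subunit, was at 43.9, 37.4 and 42.1 CPM in WT against 72.0, 140 and 61.9 CPM in LKO. It rose by 1.15 ± 0.29 (adjusted p = 0.0145) with LKO replicate 2 well above the others, and by 0.70 without that mouse. Its estimate was 0.23 with total counts and -0.45 on the TPM scale. Ndufs3, another subunit of the Q module, was at 49.6, 37.9 and 46.2 CPM in WT against 57.8, 61.0 and 47.0 CPM in LKO. It did not pass the test (0.31 ± 0.16, adjusted p = 0.169), its ranges overlapped, and its estimate turned negative with total counts and on the TPM scale.

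**Figure D2:**
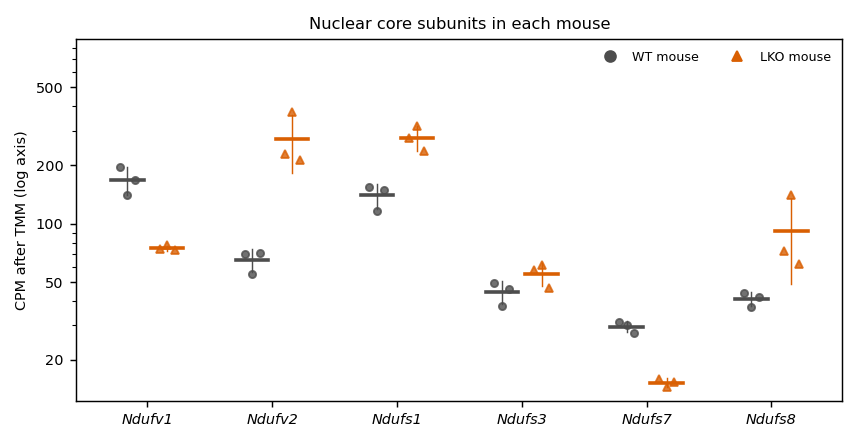
CPM after TMM scaling (log axis) of 6 nuclear core subunits in each WT mouse (grey circles) and LKO mouse (orange triangles), with the mean (horizontal line) and SD (vertical line) of each group. Ndufv1 and Ndufs7 are lower in every LKO mouse and Ndufv2, Ndufs1 and Ndufs8 higher, whereas Ndufs3 overlaps.

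Ratios of counts between genes of the same mouse do not depend on how libraries are scaled against each other. They were chosen with the results known and are given as a description. Ndufv2 counts were 0.357, 0.394 and 0.422 times those of Ndufv1 in the WT mice, and 3.07, 4.83 and 2.90 times in the LKO mice, so that the order of the pair was reversed in every LKO mouse. The mean ratio was 9.20 times larger in LKO. The ratio of Ndufs8 to Ndufs7 went from 1.39 ± 0.14 in WT to 6.07 ± 3.14 in LKO (SD, n = 3 each), and that of Ndufs1 to Ndufv1 from 0.835 ± 0.050 to 3.68 ± 0.45. In the membrane arm, Ndufb11 over Ndufb10 went from 1.37 ± 0.16 to 11.2 ± 3.99. None of these 4 ratios overlapped between the groups. This follows from the choice of pairs, since each sets a gene above the WT range in every LKO mouse over a gene below it.

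The calls were then counted by arm, core subunits included, where 19.6% of all genes tested were higher and 20.5% lower. All 10 nuclear genes of the N module passed the test, with 8 higher and 2 lower (median 0.99). The 8 were Ndufv2 and Ndufs1 above, Ndufa6 (1.90), Ndufa2 (1.72), Ndufs4 (1.56), Ndufa7 (1.00), Ndufs6 (0.78) and Ndufa12 (0.50). With total counts, Ndufs6 and Ndufa12 turned negative, and on the TPM scale Ndufs1 and Ndufa7 did too. Without WT replicate 2 or 3, 6 genes of this module were higher, and 5 with a smooth trend on length taken out. Ndufv3, a small subunit attached to the flavin pair, was the lowest of all members, at 37.0, 30.1 and 33.4 CPM in WT against 19.2, 11.8 and 12.5 CPM in LKO (-1.21 ± 0.21, adjusted p = 0.00274).

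In the Q module, 2 of 6 genes were higher and 1 was lower (median 0.34). These were 33.3% and 16.7%, against 19.6% and 20.5% of all genes tested. The higher pair was Ndufs8 and the accessory gene Ndufa5 (1.60 ± 0.15, adjusted p = 0.000303). With a smooth trend on transcript GC taken out, 4 of the 6 were higher. Ndufa9, an accessory subunit beside the ubiquinone site, was at 79.2 ± 9.88 CPM in WT against 102 ± 12.3 CPM in LKO (SD, n = 3), with adjusted p = 0.102.

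The proximal membrane arm had the smallest median among the nuclear arms (0.10), with 3 higher, 2 lower and 4 not called of 9. These were 33.3% higher and 22.2% lower, against 19.6% and 20.5% of all genes tested. The lower share was thus near that of all genes. With a smooth trend on transcript GC taken out 5 were higher, and with one on length taken out 4 were lower. Ndufa1 (1.53), Ndufc2 (1.32) and Ndufa13 (0.94) were higher. All of these were negative on the TPM scale. Ndufa10, a kinase-like accessory subunit, was at 117, 99.6 and 110 CPM in WT against 56.4, 46.8 and 46.9 CPM in LKO (-1.12 ± 0.15, adjusted p = 0.000842). Ndufa8, an intermembrane-space subunit held by disulphide bonds, was at 32.8, 22.6 and 27.5 CPM in WT against 14.5, 15.0 and 13.1 CPM in LKO (-0.96 ± 0.17, adjusted p = 0.00297). In both genes all LKO mice were below all WT mice. Ndufa3, Ndufa11, Ndufc1 and Ndufs5 had estimates from 0.10 to 0.26 with overlapping ranges.

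In the distal membrane arm 7 of 10 nuclear genes were higher and 1 was lower (median 0.98). Ndufb11, an X-linked gene whose loss of function causes human disease, was at 60.0, 54.2 and 60.5 CPM in WT against 275, 467 and 233 CPM in LKO. It rose 5.58-fold (2.48 ± 0.27, adjusted p = 0.000422) with no overlap. Ndufb4 was at 26.2, 27.7 and 33.5 CPM in WT against 117, 260 and 106 CPM in LKO (2.47 ± 0.35, adjusted p = 0.00107), with LKO replicate 2 well above the other LKO mice. Ndufb2 (1.43), Ndufb5 (1.37), Ndufb8 (1.17), Ndufb9 (0.79) and Ndufb3 (0.78) rose less. These 5 were negative on the TPM scale, and Ndufb3 and Ndufb9 with total counts as well. Ndufb10, another disulphide-bonded subunit, was at 49.7, 35.7 and 43.9 CPM in WT against 32.9, 29.6 and 24.3 CPM in LKO (-0.57 ± 0.18, adjusted p = 0.0316). It was the only lower gene of this arm, and it lost its call when any mouse other than WT replicate 2 or LKO replicate 1 was left out, and with upper-quartile scaling. Ndufb7 was at 29.9, 23.2 and 27.2 CPM in WT against 26.7, 24.7 and 21.6 CPM in LKO (-0.14 ± 0.15, adjusted p = 0.516), with overlapping ranges.

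A further 4 nuclear members are matched by name but are not standard subunits of the arms above. Ndufa4, once counted in complex I and now known as a subunit of cytochrome c oxidase, was at 183, 165 and 192 CPM in WT against 670, 881 and 576 CPM in LKO (1.98 ± 0.21, adjusted p = 0.000379). On the length-adjusted TPM scale it was also the most abundant of the nuclear members, at 711 ± 12.2 TPM in WT and 946 ± 55.6 TPM in LKO (SD, n = 3). Its relative Ndufa4l2 was nearly absent, at 0.169 ± 0.11 CPM in WT against 0.219 ± 0.105 CPM in LKO. Ndufb4b was at 1.68, 1.53 and 1.71 CPM in WT against 7.47, 16.2 and 6.79 CPM in LKO (2.63 ± 0.35, adjusted p = 0.000873). Ndufb4c was at 1.92, 1.68 and 2.04 CPM in WT against 9.13, 19.5 and 8.22 CPM in LKO (2.70 ± 0.35, adjusted p = 0.000755). These 2 copies of Ndufb4 lie at chr19:25033108-25033578 and chr15:73809449-73809933 (GRCm38.p6), inside the spans of Dock8 and Mroh5, and Ndufb4 lies on chromosome 16. All 390 bases of the Ndufb4c transcript matched the Ndufb4 transcript, so that reads of Ndufb4c and Ndufb4 may be shared. Ndufb4b was not aligned. The LKO mice stood in the same order for the 3 genes. Without the 4 relatives, 20 of 35 nuclear subunits were higher and 6 lower.

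The promoters of a higher and a lower subunit holding the same motif are shown for 2 motifs, since each of these motifs was found in genes of both directions. Each is 300 bases from RefSeq (GRCm38.p6), 250 before and 50 from an annotated start on, written 5′ to 3′ on the gene's strand with the motif in capitals. For Ndufs7 the whole window lies inside the annotated gene span (chr10:80249105-80256794). Its positions are therefore relative to a start downstream of the gene's first base. The YY1 motif, AAGATGGC, began at base 36 of the transcript in Ndufs4 (higher, chr13:114388045-114388344, minus strand) and at base 25 in Ndufs7 (lower, chr10:80249199-80249498, plus strand). The NRF1 motif, GCGCATGC, was read on the opposite strand and began 83 bases before the start of Ndufa6 (higher, chr15:82354242-82354541, minus strand) and 8 bases before that of Ndufa8 (lower, chr2:36049289-36049588, minus strand).
Ndufs4: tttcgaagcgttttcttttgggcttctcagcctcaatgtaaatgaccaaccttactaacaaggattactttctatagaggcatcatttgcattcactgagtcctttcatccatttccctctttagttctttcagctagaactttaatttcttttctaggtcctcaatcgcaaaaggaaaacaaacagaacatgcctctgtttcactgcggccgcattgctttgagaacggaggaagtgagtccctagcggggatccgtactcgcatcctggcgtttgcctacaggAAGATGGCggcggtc
Ndufs7: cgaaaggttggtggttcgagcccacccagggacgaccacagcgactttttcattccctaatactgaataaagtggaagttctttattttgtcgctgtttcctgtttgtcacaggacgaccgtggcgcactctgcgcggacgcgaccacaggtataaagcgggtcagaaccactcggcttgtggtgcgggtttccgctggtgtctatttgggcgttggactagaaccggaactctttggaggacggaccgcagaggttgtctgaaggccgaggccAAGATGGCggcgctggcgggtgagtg
Ndufa6: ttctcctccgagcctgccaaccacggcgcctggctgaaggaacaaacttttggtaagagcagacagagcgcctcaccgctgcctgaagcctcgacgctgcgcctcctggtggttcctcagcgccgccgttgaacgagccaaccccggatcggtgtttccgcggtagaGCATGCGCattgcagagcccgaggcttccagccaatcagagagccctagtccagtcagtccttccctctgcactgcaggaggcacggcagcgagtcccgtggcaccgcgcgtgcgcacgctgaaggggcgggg
Ndufa8: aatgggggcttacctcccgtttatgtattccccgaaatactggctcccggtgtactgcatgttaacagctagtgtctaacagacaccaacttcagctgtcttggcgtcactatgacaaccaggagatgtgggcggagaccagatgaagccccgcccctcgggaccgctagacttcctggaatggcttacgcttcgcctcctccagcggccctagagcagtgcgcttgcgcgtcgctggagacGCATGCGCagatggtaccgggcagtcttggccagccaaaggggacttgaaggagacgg
Of the 47 nuclear-encoded genes, 40 had a promoter in the RefSeq set used here (42 promoters, since some genes have more than 1), of which 24 genes were called higher and 6 lower. On either strand, the YY1 letters were found in 8 genes (19.0% of the 42 promoters against 2.75% of all 32851 promoters), of which 4 were higher and 1 was lower. The NRF1 letters were found in 5 genes (11.9% against 2.71%), 2 higher and 1 lower. The ETS letters CCGGAAG were found in 6 genes (14.3% against 8.86%), 2 higher and none lower, and the ERR letters AAGGTCA in 3 genes (7.14% against 4.72%), 2 higher and none lower. The ETS and YY1 strings end and begin with the same 3 letters and can overlap. These are matches of letters and not measured binding.

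The genes of 8 factors and cofactors known to act on nuclear respiratory genes were examined beside them. Of these, 1 was called higher (12.5%, against 19.6% of all genes tested) and none lower (against 20.5%). It was Ppargc1a, a coactivator of mitochondrial gene expression that fasting is known to induce in liver, at 8.62, 9.40 and 6.79 CPM in WT against 18.9, 18.0 and 110 CPM in LKO (2.56 ± 0.67, n = 3 per group, adjusted p = 0.0166 by edgeR). LKO replicate 3 stood far above the other LKO mice, and without it the change was 1.16 (adjusted p = 0.00265). The call was lost without WT replicate 1, 2 or 3 (adjusted p = 0.0511, 0.0543 and 0.0607 by edgeR). The estimate missed the threshold with total counts (1.73, adjusted p = 0.0536) and on the TPM scale (0.46, adjusted p = 0.521). For Nrf1, Gabpa, Gabpb1, Yy1, Ppargc1b and Pprc1, the estimates ran from -0.55 to 0.12, and for Esrra, which encodes the orphan receptor ERRα, the estimate was 0.61 ± 0.23 (adjusted p = 0.0659).

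Among the assembly factors, 6 of 8 were higher and none was lower (median 0.77). The largest rises were in Ndufaf2, a chaperone of a late assembly intermediate, and Ndufaf8, a partner of Ndufaf5. Ndufaf2 was at 5.51, 3.91 and 4.78 CPM in WT against 10.6, 14.5 and 11.3 CPM in LKO (1.36 ± 0.20, adjusted p = 0.00146). Ndufaf8 was at 4.80, 3.87 and 4.78 CPM in WT against 12.9, 11.8 and 8.33 CPM in LKO (1.30 ± 0.21, adjusted p = 0.00217). Ndufaf4, which acts on the early Q module intermediate, varied among the WT mice, at 36.8, 73.6 and 43.5 CPM against 89.2, 109 and 126 CPM in LKO (1.08 ± 0.27, adjusted p = 0.0134). None of the 3 genes overlapped between the groups. Ndufaf6 was at 5.86, 6.34 and 7.20 CPM in WT against 9.54, 11.9 and 11.9 CPM in LKO (0.78 ± 0.18, adjusted p = 0.00836). Ndufaf3, which works together with Ndufaf4, was at 5.22, 4.42 and 6.17 CPM in WT against 9.0, 8.57 and 7.01 CPM in LKO (0.64 ± 0.20, adjusted p = 0.0327). Ndufaf7, a mitochondrial methyltransferase, was at 5.55, 3.88 and 6.41 CPM in WT against 9.11, 10.7 and 6.79 CPM in LKO (0.75 ± 0.25, adjusted p = 0.0429).

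Ndufaf1 and Ndufaf5 did not pass the test. Ndufaf1, part of the complex that assembles the membrane arm, was at 24.9, 19.1 and 23.1 CPM in WT against 26.9, 29.6 and 23.0 CPM in LKO (0.25 ± 0.16, adjusted p = 0.262). Ndufaf5, which hydroxylates Ndufs7, was at 3.19, 3.00 and 3.75 CPM in WT against 3.91, 5.16 and 2.85 CPM in LKO (0.26 ± 0.26, adjusted p = 0.456). Ranges of both overlapped. These calls depended on the scale. With total counts none was called higher and 1 was called lower (median -0.10, with Ndufaf1, Ndufaf3, Ndufaf5, Ndufaf6 and Ndufaf7 negative), and on the TPM scale all 8 were negative and 4 were called lower. Their summed TPM was 107 to 120 in WT and 65.1 to 78.2 in LKO.

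Assembly genes and subunits that carry other names moved in both directions. Of 13 such genes 12 were tested, and 4 were higher and 5 lower, with a median of -0.30. These were 33.3% and 41.7%, against 19.6% and 20.5% of all genes tested. Lyrm2 (1.94), Tmem126b (1.73) and Tmem70 (1.07) were higher, as was Nubpl (0.76), which delivers iron-sulfur clusters to complex I. Dmac1 (-1.43), Ecsit (-0.99), Tmem186 (-0.89), Foxred1 (-0.83) and Aifm1 (-0.60) were lower. Tmem126b, Tmem186, Ecsit and Dmac1 are linked to assembly of the membrane arm, and within this small group Tmem126b rose from 10.6, 9.45 and 12.5 to 34.6, 43.2 and 30.5 CPM while Dmac1 fell from 26.0, 24.3 and 21.3 to 7.88, 8.80 and 9.95 CPM. Nubpl turned negative with total counts, and Nubpl and Tmem70 on the TPM scale. Nubpl also lost its call without WT replicate 2 and with a smooth trend on length or on transcript GC taken out. Aifm1 lost its call without WT replicate 1, WT replicate 3 or LKO replicate 2, and with the trend on GC taken out. Ndufab1, the acyl carrier protein that is itself a subunit, did not pass (0.31 ± 0.13, adjusted p = 0.0906).

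The 7 mitochondrial subunits form the proton-pumping core of the membrane arm. ND1 holds part of the ubiquinone channel, and ND2, ND4 and ND5 are the large antiporter-like subunits. Their genes lie on mitochondrial DNA and are transcribed as long polycistronic RNAs that are then cut. Genes that overlap by annotation can share reads. The ND4L and ND4 reading frames share 7 bases (capitals), shown here as the last 40 bases of ND4L (chrMT:10134-10173) and the first 40 of ND4 (chrMT:10167-10206), both from the plus strand.
ND4L end: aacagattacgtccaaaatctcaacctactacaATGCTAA
ND4 start: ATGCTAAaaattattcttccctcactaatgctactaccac
ND5 (chrMT:11742-13565) and ND6 (chrMT:13552-14070), which are read from opposite strands, overlap by 14 bases. The sources used here do not say whether strand was used in counting, so that ND5 and ND6 reads may not be fully told apart.

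ND6, the mitochondrial subunit read from the strand opposite to the others, was at 12.9, 12.7 and 16.3 CPM in WT against 22.7, 62.9 and 32.9 CPM in LKO (1.5 ± 0.34, n = 3 per group, adjusted p = 0.00902). ND4L was at 1.29, 1.94 and 2.00 CPM in WT against 2.64, 6.19 and 5.19 CPM in LKO (1.42 ± 0.35, adjusted p = 0.0126). In these 2 genes LKO replicate 2 was the highest mouse. ND5 was at 131, 195 and 204 CPM in WT against 224, 323 and 414 CPM in LKO (0.86 ± 0.26, adjusted p = 0.0315). ND3 was at 224, 288 and 309 CPM in WT against 312, 509 and 484 CPM in LKO (0.67 ± 0.23, adjusted p = 0.0480). Ranges did not overlap for any of the 4, although LKO replicate 1 lay only just above the WT mice for ND3.

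The other 3 did not pass the test. ND1 was at 256, 306 and 277 CPM in WT against 318, 342 and 749 CPM in LKO (0.75 ± 0.32, adjusted p = 0.0982). ND2 was at 28.7, 55.9 and 47.3 CPM in WT against 39.9, 70.4 and 129 CPM in LKO (0.86 ± 0.41, adjusted p = 0.127). ND4 was at 75.7, 133 and 132 CPM in WT against 82.1, 112 and 250 CPM in LKO (0.38 ± 0.40, adjusted p = 0.479). LKO replicate 3 was the highest mouse for all 3, and it also had the largest share of its counts in genes of mitochondrial DNA (5.52%, against 3.28% to 3.98% in the other 5 mice). Without it, 2 of the 7 genes were called higher, and the ND4 estimate was -0.22. Without LKO replicate 2 only 1 was called, without LKO replicate 1 there were 6, and without any single WT mouse there were 2.

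**Figure D3:**
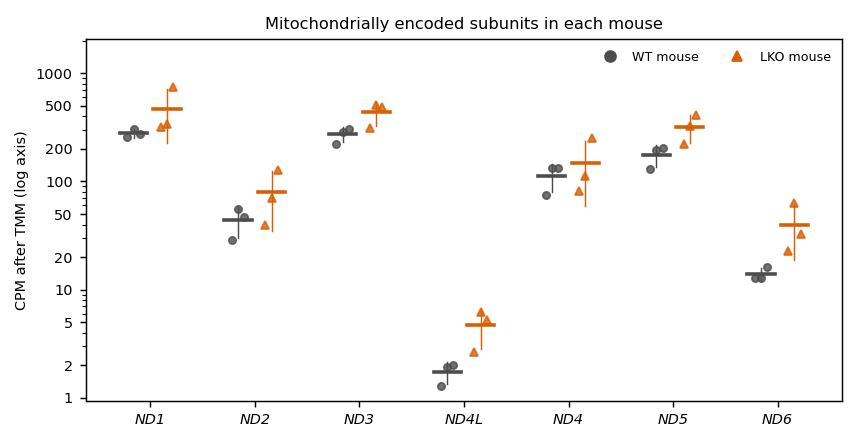
CPM after TMM scaling (log axis) of the 7 mitochondrially encoded subunits in each WT mouse (grey circles) and LKO mouse (orange triangles), with the mean (horizontal line) and SD (vertical line) of each group. LKO replicate 3 is the upper triangle for ND1, ND2, ND4 and ND5, and LKO replicate 2 for ND3, ND4L and ND6.

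The higher calls of the mitochondrial subunits depended on the scale. With total counts none of the 7 was called and the median was -0.01, and on the TPM scale all 7 estimates were negative and 2 were called lower. Their summed level was 2144 to 3016 TPM in WT and 1101 to 2123 TPM in LKO. Set against the nuclear members of the same mouse, the summed ND counts were 0.321, 0.541 and 0.454 of the nuclear counts in WT and 0.245, 0.267 and 0.581 in LKO, so that the balance of the 2 genomes overlapped between the groups. The ND4 to ND4L ratio, chosen with the values known, was 64.5 ± 5.02 in WT and 32.5 ± 15.0 in LKO, with no overlap. ND4L had only 96 to 240 counts per mouse and overlaps ND4. The assignment of reads between these genes may therefore enter the ratio, which was not tested. The ratio is one of counts assigned to overlapping reading frames, and need not be one of separate mRNAs. Among the 6 mitochondrial mRNAs of other complexes, 2 were higher (33.3%, against 19.6% of all genes tested) and none lower. COX1 (1.28 ± 0.30, adjusted p = 0.0102) and COX3 (1.35 ± 0.26, adjusted p = 0.00404), subunits of cytochrome c oxidase, were those called. Neither was called with total counts (0.41 and 0.47, adjusted p = 0.131 and 0.0643) or with transcript GC offsets (0.66 for both, adjusted p = 0.0780 and 0.0521), and both were negative on the TPM scale. CYTB, COX2, ATP6 and ATP8 had estimates from 0.42 to 0.75 and did not pass.

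The nuclear genes that express mitochondrial DNA moved in both directions, with 10 higher and 7 lower of 25 (median 0.04). Higher were Fastkd2 (1.80), Slirp (1.74), Hsd17b10 (1.70), Tfb1m (1.59), Tefm (1.41), Ssbp1 (1.34), Pnpt1 (1.23), Trmt10c (0.89), Mterf4 (0.83) and Tfb2m (0.80). Lower were Twnk (-0.94), Fastkd5 (-0.77), Tbrg4 (-0.72), Supv3l1 (-0.70), Polrmt (-0.67), Mtpap (-0.55) and Lrpprc (-0.46). Slirp, which stabilises mitochondrial mRNA as the partner of Lrpprc, went from 15.0, 12.4 and 14.7 CPM to 44.1, 59.1 and 37.1 CPM while Lrpprc was lower, and Polrmt, the mitochondrial RNA polymerase, was lower where its elongation factor Tefm was higher. Lrpprc kept its call only when WT replicate 2 was left out and Polrmt only when LKO replicate 3 was, among the fits without 1 mouse, and neither was called with length offsets (adjusted p = 0.149 and 0.0686) or with GC offsets (0.0812 and 0.0875). Mtpap lost its call without WT replicate 1, WT replicate 2, LKO replicate 1 or LKO replicate 2, and with length offsets. Supv3l1 lost its call without WT replicate 1, WT replicate 3 or LKO replicate 2, and Tbrg4 without WT replicate 2 or WT replicate 3. With GC offsets Supv3l1, Tbrg4 and the higher gene Tfb2m were not called. Of the 10 higher genes, 8 stayed positive with total counts and 4 on the TPM scale, namely Fastkd2, Slirp, Hsd17b10 and Tfb1m.

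Complex I holds more iron-sulfur clusters than any other respiratory complex. Of the 14 genes of iron-sulfur cluster assembly, 5 were higher and 2 lower (median 0.31). These were 35.7% and 14.3%, against 19.6% and 20.5% of all genes tested. Lyrm4 (1.48), Isca2 (1.14), Fdx2 (1.08) and Bola3 (0.97) were among the higher genes, and Fdxr (-1.02), the reductase of the ferredoxins, and Iba57 (-0.86) were lower. The scaffold Iscu and the desulfurase Nfs1 had estimates of -0.12 and -0.09 and did not pass. The 5 higher genes were positive with total counts and negative on the TPM scale. Iba57 lost its call without WT replicate 1 or LKO replicate 2 and with GC offsets, and Fdx2 with length offsets.

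Sequence composition went with the size of the change. The transcripts of the 6 lower nuclear subunits had a GC content of 52.1% to 60.7% (median 55.7%), those of the 21 higher members with a transcript ranged from 42.0% to 60.4% (median 51.5%), and those not called had a median of 53.5%. Across 37 nuclear members, log2 fold change and transcript GC had a Pearson r of -0.47 and a Spearman rho of -0.49, and across 13573 protein-coding genes r was -0.25 and rho -0.30. These describe genes of the same 6 libraries, which are not independent of each other. In the range from 55% to 60% GC, 10 nuclear members had a median of 0.22 and all 2628 protein-coding genes had one of -0.38. At 45% to 50% GC, 7 nuclear members had a median of 1.17 and all 3516 genes -0.13. With a smooth trend on GC taken out, 25 of 37 nuclear members were higher and 5 lower, and Ndufv2, Ndufs4 and Ndufb11 stayed positive and Ndufv1 and Ndufs7 negative. The mitochondrial subunits, with GC contents of 33.0% to 41.1%, had a median of -0.01 after that step, and 1 was called.

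**Figure D4:**
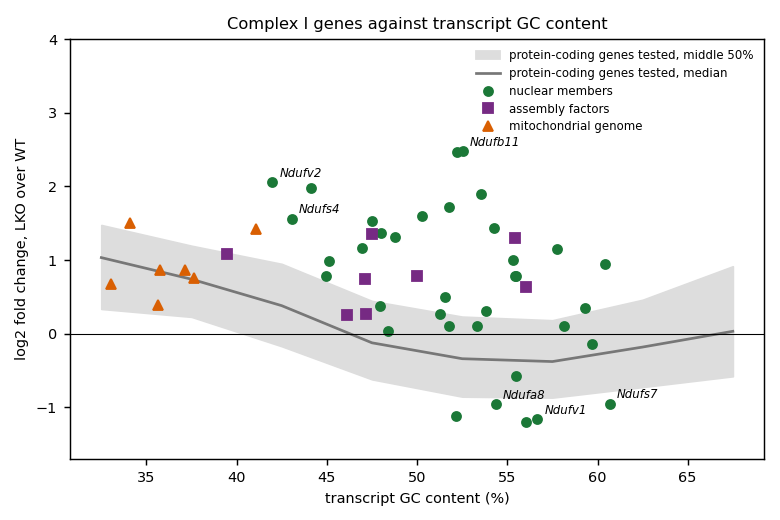
Log2 fold change (LKO over WT, vertical axis) of complex I genes against the GC content of their transcript (percent, horizontal axis), for nuclear members (green circles), assembly factors (purple squares) and mitochondrial subunits (orange triangles). The grey line and band are the median and middle 50% of protein-coding genes in steps of 5 percentage points; most nuclear members lie above the line, the lower subunits lie to the right at 52.1% GC or more, and the mitochondrial subunits lie around the line, with ND4L and ND6 above the band.

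Complex I transcripts are short, with a median of 861 bases for the nuclear members against 3016 bases for protein-coding genes tested. Shorter genes as a whole had higher estimates. Genes between 0.125 and 0.25 of the typical relative length had a median of 0.66 over 297 protein-coding genes, and the 15 nuclear members among them had one of 1.53. With a smooth trend on length taken out, 16 nuclear members were higher and 10 lower, with a median of 0.20, in place of 23 higher, 6 lower and 0.79. All 23 stayed positive and all 6 negative in that fit.

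**Figure D5:**
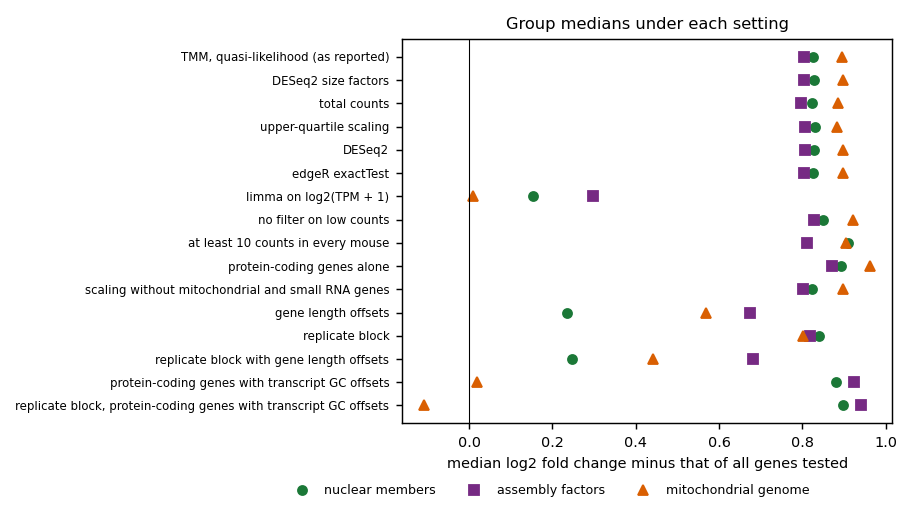
Median log2 fold change of nuclear members (green circles), assembly factors (purple squares) and mitochondrial subunits (orange triangles) minus the median of all genes tested in the same fit (horizontal axis), with 1 line for each way of scaling, filtering or testing. The medians sit between 0.80 and 0.96 for the scalings, tools and filters that use counts without length or GC offsets. They come closer to 0 on log2(TPM + 1), with length offsets (most for the nuclear members) and with GC offsets (for the mitochondrial subunits alone). The 1 added to TPM pulls low genes towards no change, so that medians on that scale are not directly comparable with the others.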

How the data were processed

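Liver RNA of 3 WT and 3 LKO mice was examined; group and replicate were taken from the sample titles. Per the labels, libraries came from a stranded Illumina kit for mRNA, whereas the study's methods name a stranded total RNA kit with rRNA removal, so that the selection of RNA is uncertain. The submitters' processing notes name bcl2fastq 2.20.0, FastQC 0.11.7, HISAT2 2.1.0, Bowtie2 2.3.4.1 and StringTie 2.1.3b with mm10, and the use of strand in counting is not given in the sources used here. The deposited table gives, for 45777 RefSeq genes, read counts made by the authors with StringTie, FPKM (the authors' counts per kilobase and per library size, used here only for relative gene length) and TPM, scaled by the authors to a fixed sum per library. The number of mice, 3 per group, limits the precision.

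Counts were fitted with edgeR 4.0.16 in R 4.3.3 (TMM scaling, quasi-likelihood test, two-sided, Benjamini-Hochberg adjustment over all genes, threshold 0.05) after leaving out genes with more than 1 zero count. The code was tested on simulated counts. The ± beside a log2 fold change is its SE, and beside a level or ratio the SD. Alternatives used DESeq2 1.42.0, limma 3.58.1 on log2(TPM + 1), other scalings and filters, the edgeR exact test, length offsets, a replicate block and leaving out each mouse. Offsets for transcript GC were added after seeing the data, within protein-coding genes, since only 74.3% of all genes tested had a GC value. Transcripts came from GENCODE and promoters from RefSeq. Values in every mouse were given for core, mitochondrial and assembly genes and for the 5 highest and 5 lowest other nuclear members of at least 1 CPM. Values by mouse for Ppargc1a, Tmem126b, Dmac1 and Slirp, the ratios and the promoters were chosen after the values were seen. Some items are not reported here. The members and lists were chosen with earlier results of these data known. The labels do not say whether mice of a group share a litter.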

Additional observations from a re-analysis of the deposited data

How the results depend on the processing

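Directions of the member groups were kept by DESeq2 (size factors alone or with its own test), upper-quartile scaling, the edgeR exact test, filters, protein-coding genes alone and scaling without mitochondrial and small RNA genes. With total counts, 1167 genes were higher and 9575 lower, the counts were 14 and 15 for nuclear members, 0 and 1 for assembly factors and 0 higher for mitochondrial subunits, and the medians were -0.078, -0.10 and -0.013. Estimates that turned were Ndufs3 -0.56, ND1 -0.10, ND2 -0.012, ND3 -0.22, ND4 -0.47, ND5 -0.013, Ndufaf1 -0.62, Ndufaf3 -0.22, Ndufaf5 -0.62, Ndufaf6 -0.086 and Ndufaf7 -0.12, and Pak4 was called at -1.54. On log2(TPM + 1), 453 genes were higher and 13322 lower, the counts were 7 and 22 for nuclear members, 0 and 4 for assembly factors and 0 and 2 for mitochondrial subunits, and the medians were -0.63, -0.49 and -0.78. Turned were Ndufs1 -0.55, Ndufs3 -1.22, Ndufs8 -0.45, ND1 -0.91, ND2 -0.78, ND3 -0.90, ND4 -1.27, ND4L -0.17, ND5 -0.70, ND6 -0.16, Ndufaf1 -1.17, Ndufaf2 -0.17, Ndufaf3 -0.76, Ndufaf4 -0.40, Ndufaf5 -0.49, Ndufaf6 -0.49, Ndufaf7 -0.55 and Ndufaf8 -0.25, and Pak4 was called at -1.19.

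With length offsets 10 nuclear members were lower (median 0.20), 1 mitochondrial subunit was higher and Ndufs3 was -0.12. With transcript GC offsets, 1 mitochondrial subunit was called (median -0.0084), with ND1 -0.0084, ND2 -0.02, ND3 -0.43, ND4 -0.50 and Ndufb7 0.11. At an adjusted p of 0.01, 2262 genes were higher and 2112 lower, with 3 assembly factors and 1 mitochondrial subunit higher. Without single mice, the nuclear median ranged from 0.68 to 0.99 (highest without WT replicate 1), mitochondrial calls from 1 to 6, Pak4 from -1.08 (called) to -0.49, and ND4 from -0.22 to 0.67. The cause of these changes was not tested.

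Replicate numbers did not pair the mice: deviations of same-numbered mice correlated at 0.05, -0.03 and -0.08. With a replicate block, 3129 genes were higher and 3302 lower, nuclear members 22 and 6, assembly factors 4 and 0, and mitochondrial subunits 4 and 0, with medians of 0.79, 0.77 and 0.75, and Ndufaf3 and Ndufaf7 lost their calls. The replicate block with length offsets gave 15 and 10 nuclear members (0.20), 3 assembly factors and 1 mitochondrial subunit (median 0.40), with Ndufs3 -0.11 and ND3 -0.0074. The replicate block with GC offsets gave 2333 and 2391 genes and 1 mitochondrial subunit (median -0.15), with ND1 -0.15, ND2 -0.17, ND3 -0.45, ND4 -0.66 and Ndufb7 0.12.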

Other observations

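The RNAs that flank and translate the ND genes on mitochondrial DNA are listed here with their values. Of 22 mitochondrial tRNA genes, 20 were tested and 15 were called higher in LKO liver, none lower. The median log2 fold change of the 20 was 1.92. Several of these calls rested on few counts. The WT mice had 2, 1 and 2 counts for TrnH and 3, 2 and 2 for TrnS2. With only genes of at least 10 counts in every mouse kept, 12 were tested and 9 were called higher, none lower (median 1.65). TrnS1 had the highest level, with TrnY next at a mean of 5.31 CPM in WT and 15.1 CPM in LKO. TrnS1 was at 95.8, 79.6 and 98.0 CPM in WT against 216, 341 and 260 CPM in LKO (1.58 ± 0.20, adjusted p = 0.000755 by edgeR's quasi-likelihood test), without overlap. TrnI, which overlaps ND1 by annotation, had an estimate of -0.24 ± 0.38 (adjusted p = 0.637). The count of calls depended on single mice and on the scale: 9 were called higher without WT replicate 1 or 3, 10 without WT replicate 2, 17 without LKO replicate 1, 14 without LKO replicate 3, and 10 (with 1 lower, median 1.31) without LKO replicate 2. With total counts 6 were called higher and 1 lower (median 0.97). On the TPM scale TrnC and TrnY turned negative, and 1 was called higher and 2 lower. mt-Rnr1 and mt-Rnr2, the mitochondrial rRNAs, had estimates of 1.08 (adjusted p = 0.0839) and 0.90 (adjusted p = 0.0902). LKO replicate 3 was the highest for both, at 1930 CPM for mt-Rnr1 against 578 to 825 CPM in the other LKO mice.

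Ndufb1-ps, a gene outside the protein-coding rule that carries the name of the small distal-arm subunit Ndufb1, was at 53.8, 42.3 and 51.1 CPM in WT against 112, 267 and 122 CPM in LKO (1.77 ± 0.33, adjusted p = 0.00373 by edgeR). LKO replicate 2 was the highest mouse, as it was for Ndufb4 and Ndufb11. Ndufs5-ps, the counterpart of Ndufs5, was at 4.4, 4.03 and 3.81 CPM in WT against 5.0, 4.16 and 3.01 CPM in LKO (-0.01 ± 0.23, adjusted p = 0.975), with overlapping ranges.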
